A study of Mus musculus with 64 samples.

Results

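The clustered protocadherins are 3 families of cell-surface adhesion genes, alpha, beta and gamma, that lie beside each other on 1 chromosome. All genes of the counts table whose symbol begins Pcdha, Pcdhb or Pcdhg were taken, which gave 59 of 48795 genes: 14 alpha, 22 beta and 23 gamma members. The gamma members comprised 12 of the A kind, 8 of the B kind and 3 of the C kind, and 2 of the alpha members were also of the C kind. In mouse GRCm38 the 58 members that the annotation places lie on chromosome 18, on the plus strand, with the alpha cluster at chr18:36930184-37187661, the beta cluster at chr18:37264938-37524479 and the gamma cluster at chr18:37661793-37841873.

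RNA of striatum and of cerebral cortex from 32 mice on the C57BL/6 strain, all 6 months old, was sequenced in 64 libraries, 1 for each tissue of each mouse. There were 8 mice of each genotype, 4 female and 4 male: wild type, Polq+/- (1 disrupted copy of the gene of DNA polymerase theta), Q140 (1 knock-in copy of huntingtin with an expanded CAG tract, a mouse model of Huntington's disease) and Q140 Polq+/-, which carries both alleles. The alleles are in the germ line, so no cell type is targeted, and whole dissected tissue was used. The striatal libraries held 28.7 to 40.6 M counts (M, mega) and the cortical ones 30.9 to 40.1 M.

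In mammals each alpha or gamma variable exon has its own promoter and is spliced to constant exons shared by the whole cluster, while each beta gene is a single exon. A neuron transcribes a small, largely random set of the alpha, beta and gamma A and B members, and the C-type members are transcribed in most neurons without that choice. The proteins bind only like partners on facing membranes, which lets the branches of 1 neuron tell themselves from those of other neurons. Promoter choice is known to depend on DNA methylation and on loops that CTCF and cohesin form with distant enhancers, and the structural protein SMCHD1 is known to silence members of the clusters.

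Before any comparison, the labels were checked and 3 striatal libraries stood apart. Median Polq was 3.06 CPM (a gene's counts scaled to its library's size) in wild-type and 1.70 in Polq+/- striatum, and 3.19 in Q140 and 1.78 in Q140 Polq+/- striatum, and the cortex showed the same order. The 4 mice Polq+/- M3 and Q140 Polq+/- F3, F4 and M3 had less Polq than the other 12 mice labelled Polq+/-, with 0.184 to 0.373 CPM in striatum and 0.38 to 0.611 in cortex, where the other 12 had 1.29 to 2.38 and 1.14 to 1.96. The genotype of these 4 was not checked further, and the groups are called by their labels throughout. The markers of spiny neurons, the main cells of the striatum, summed to a median of 8694 CPM in wild-type striatum and 203 in wild-type cortex, while those of cortical projection neurons summed to 18.5 and 1977. Wild type M2 had 210 CPM of cerebellar granule cell markers against a median of 26.6 in its group, and Polq+/- F3 had 1377 CPM of choroid plexus markers against a median of 33.4. Wild type M3 had the lowest total of all 59 members among the striatal libraries. Where leaving out these 3 libraries or those 4 mice changed the call of a member named in a striatal comparison, the value stands beside it.

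Since the alpha and gamma members share their constant exons, a median of 46.4% of an alpha member's exonic bases and 55.3% of a gamma member's were its own, against 100% for beta. Pcdha4 had 494 bases of its own and 9 to 39 counts per library, and Pcdhgb8 had 0 to 8. The counts of a member therefore come mainly from its own variable exon, and levels between genes are given as CPM per kilobase of exon that no other gene shares. Repeats were sought in 100-base windows of transcript present in fewer than 4 members, which can include exon shared with a neighbouring member. Of these windows, 34.8% in Pcdhga4 and 32.1% in Pcdhgb1 occurred word for word in another member. Reads there may have been split. The median member had 3.62% in alpha, 0.21% in beta and 0.04% in gamma. Pcdhga10 lies under the antisense gene Gm26672, and no source used here says whether counting used the strand. With both strands considered, it had 0 exonic bases that no other gene shares. It still had 223 to 1024 counts per library, against 44 to 118 for Gm26672. Whether counting used the strand was not tested. The table names a pair of genes Pcdha11 and another pair Pcdhga8. By their position 1 of each was Pcdha10 (ENSMUSG00000007440) and Pcdhgc4 (ENSMUSG00000023036), and they are called so here.

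In wild-type mice 3 of the 5 C-type members stood highest in their clusters. Pcdhgc5 reached 25.52 ± 2.9996 CPM per kilobase (SD, n = 8) in striatum and 30.6 ± 1.496 in cortex, and Pcdhgc3 reached 20.7 ± 1.93 and 17.9 ± 1.02. The highest alpha member was Pcdhac2, with 10.03 ± 1.01 in striatum and 17.0 ± 0.86 in cortex. The other C-type members were lower, with Pcdhac1 at 0.75 ± 0.12 in striatum and Pcdhgc4 at 2.03 ± 0.27. Pcdhac2 held 51.1% of all alpha counts in wild-type striatum, and Pcdhgc5 held 21.1% of all gamma counts there and 31.98% in cortex.

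The other members were lower and spread widely. The median alpha member stood at 0.77 CPM per kilobase in striatum and 1.52 in cortex, the median beta member at 2.22 and 1.73, and the median gamma member at 7.18 and 4.57. Pcdha8 was the lowest alpha member, with 0.22 ± 0.11 in striatum and 0.33 ± 0.15 in cortex. Pcdhb9 was the highest beta member, with 4.42 ± 0.45 and 5.04 ± 0.56, and Pcdhb1 the lowest, with 0.21 ± 0.05 in striatum. Within a tissue the highest member exceeded the lowest by 44.7 times in alpha and 21.4 times in beta in striatum.

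**Figure D1:**
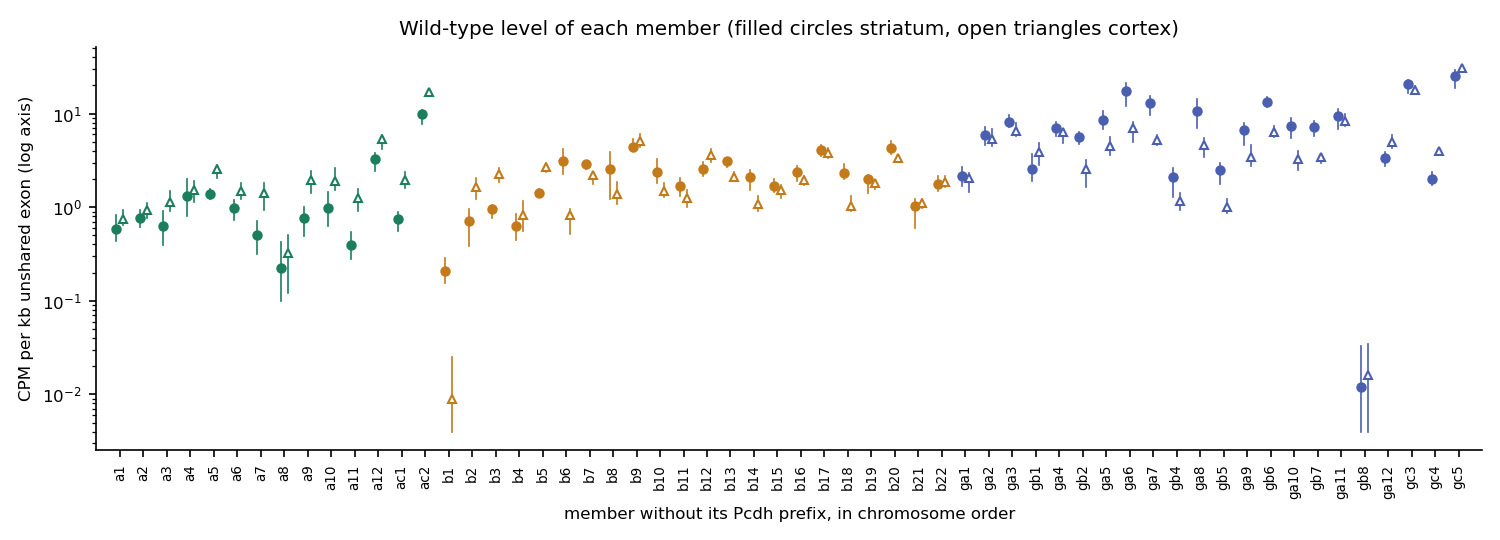
Level of each member in wild-type striatum and cortex, as CPM per kilobase of unshared exon on a log axis, in chromosome order; points are means of 8 libraries, vertical lines run from the lowest to the highest library, and lower ends at 0 are drawn at the floor of the axis. The C-type members Pcdhgc5 and Pcdhgc3 stand at 25.5 and 20.7 CPM per kilobase in striatum, and Pcdhac2 stands above all other alpha members.

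The first question was whether the Q140 allele went with a change of the clusters in striatum. Summed beta expression ranged from 166 to 222 CPM in the 8 wild-type libraries, with a median of 208, and from 263 to 306 in the 8 Q140 libraries, with a median of 284. Summed alpha expression ranged from 46.6 to 64.4 CPM in wild type, with a median of 60.7, and from 65.8 to 72.2 in Q140, with a median of 69.0. The groups did not overlap for either cluster, and the ratio of means was 1.40 for beta and 1.17 for alpha. Summed gamma expression ranged from 430 to 633 CPM in wild type and from 567 to 609 in Q140, so the groups overlapped, with a ratio of 1.05. These sums are a description and carry no test.

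The pair of groups with the Polq allele showed the same order. Summed beta expression ranged from 197 to 248 CPM in Polq+/- and from 261 to 335 in Q140 Polq+/-, and summed alpha expression from 58.4 to 65.5 and from 66.1 to 70.5. Both ratios were of groups that did not overlap, 1.35 for beta and 1.13 for alpha. Summed gamma expression overlapped, with 564 to 618 CPM in Polq+/- and 569 to 623 in Q140 Polq+/-. The 5 C-type members together had ratios of 1.03 and 1.01, and the alpha members without their C-type pair had 1.26 and 1.22. As a share of all members' counts in striatum, beta had a median of 24.7% in wild type and 29.7% in Q140, and gamma 68.4% and 62.9%.

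**Figure D2:**
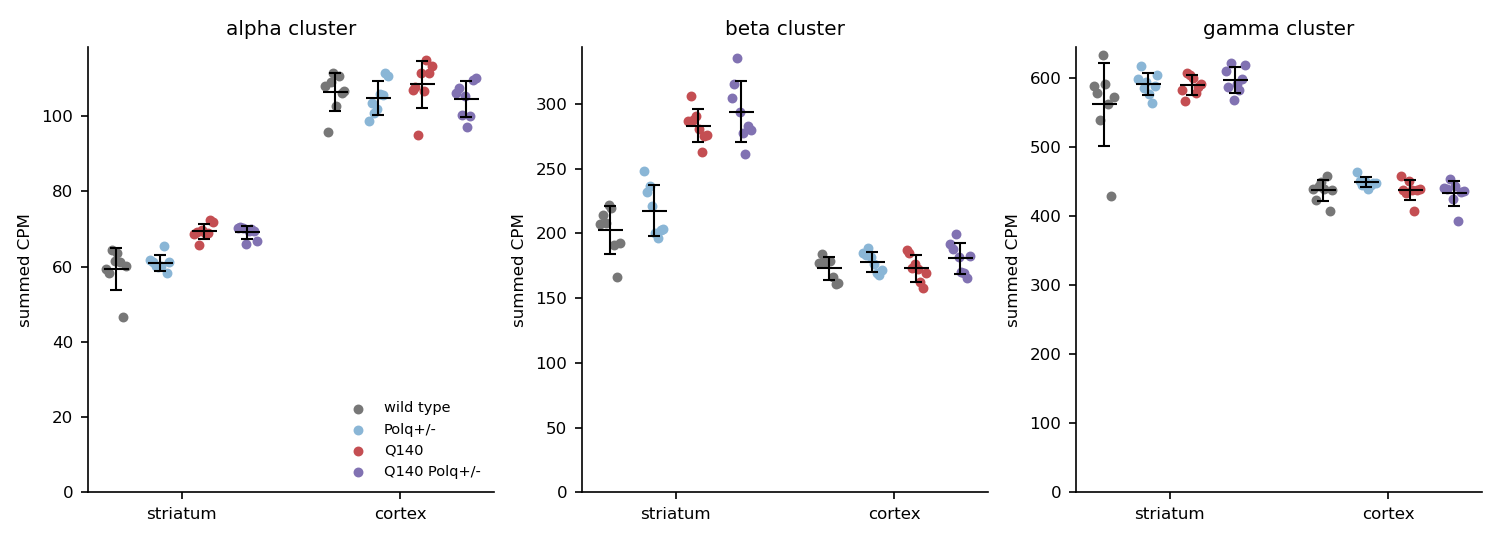
Summed CPM of the alpha, beta and gamma members in each of the 64 libraries, by tissue and genotype, from 0; points are libraries and bars are mean ± SD of 8. In striatum the Q140 and Q140 Polq+/- beta sums, 261 to 335 CPM, all lie above those of the mice without Q140, 166 to 248, while the cortical groups overlap.

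Of the 57 members with enough counts to test in striatum, 33 were higher in Q140 than in wild type and 2 were lower, at an adjusted p under 0.05 from edgeR's quasi-likelihood test over all genes. Of all 18270 genes tested, 16.9% were called higher and 15.2% lower. With limma on FPKM 40 members were called higher and 0 lower, and 74.7% of all calls were higher, against 52.7% with edgeR. The members divided unevenly: 18 of 22 beta members rose and none fell, 9 of 14 alpha members rose and 1 fell, and 6 of 21 gamma members rose and 1 fell. The median log2 fold change was 0.56 for beta, 0.42 for alpha and 0.09 for gamma, beside 0.0018 for all genes. The untested members were both Pcdhgb8 entries. In 17 members every Q140 library lay above every wild-type library, 12 of them beta, 2 alpha and 3 gamma, beside 3.79% of all genes.

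The largest estimates were those of beta members. Pcdhb2 ranged from 1.08 to 2.68 CPM in wild-type striatum, with a median of 2.11, and from 3.31 to 5.25 in Q140, with a median of 3.86. All 8 Q140 libraries were above all 8 wild-type ones, and the log2 fold change was 1.02 (SE 0.116, adjusted p = 5.74e-09). Pcdhb3 ranged from 2.93 to 3.98 CPM in wild type, with a median of 3.87, and from 6.24 to 8.96 in Q140, with a median of 6.996. Its groups were also apart, with a log2 fold change of 0.98 (SE 0.0786, adjusted p = 1.25e-12). Pcdhb21 went from 2.53 to 5.22 CPM, median 4.58, in wild type to 7.37 to 9.11, median 8.35, in Q140, and Pcdhb4 from 1.67 to 3.13, median 2.24, to 3.67 to 4.82, median 4.09. Neither pair of groups overlapped, and the log2 fold changes were 0.91 (SE 0.0978, adjusted p = 1.86e-09) and 0.84 (SE 0.105, adjusted p = 4.86e-08).

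Beta members of higher level rose too. Pcdhb9, the highest beta member per kilobase, ranged from 12.1 to 16.3 CPM in wild type and from 20.5 to 25.1 in Q140, with no overlap and a log2 fold change of 0.72. Pcdhb19, Pcdhb22, Pcdhb16, Pcdhb12, Pcdhb20, Pcdhb13 and Pcdhb5 rose by 0.80, 0.70, 0.66, 0.61, 0.61, 0.57 and 0.55 on the log2 scale. Smaller rises were called for Pcdhb10, Pcdhb17, Pcdhb15, Pcdhb18, Pcdhb14 and Pcdhb7, at 0.40, 0.40, 0.37, 0.30, 0.19 and 0.17. The beta members without a call were Pcdhb1, Pcdhb6, Pcdhb8 and Pcdhb11, with log2 fold changes of -0.18, 0.17, -0.27 and 0.20.

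Among the alpha members the changes were smaller and the counts lower. Pcdha9 ranged from 1.21 to 2.48 CPM in wild type, with a median of 1.88, and from 2.65 to 4.12 in Q140, with a median of 3.26. These groups did not overlap, and the log2 fold change was 0.79 (SE 0.131, adjusted p = 9e-06). Pcdha7 ranged from 0.67 to 1.53 CPM, median 0.98, in wild type and from 1.0999 to 2.46, median 1.85, in Q140, which overlap, with a log2 fold change of 0.70 (SE 0.17, adjusted p = 0.00134). Pcdha2, Pcdha3, Pcdha5, Pcdha10 and Pcdha6 rose by 0.54, 0.53, 0.53, 0.42 and 0.39 on the log2 scale.

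Pcdha8 had 9 to 41 counts in the wild-type and 13 to 55 in the Q140 libraries. Its CPM ranged from 0.25 to 1.05, median 0.47, and from 0.37 to 1.71, median 0.75, so the groups overlapped. The log2 fold change of 0.71 (SE 0.26) passed with an adjusted p of 0.0339. Without the low-count filter its adjusted p was 0.051, and the call was also lost without any 1 of 7 libraries, wild type F1, F3 or M4 or Q140 F1, F4, M2 or M3, at adjusted p values of 0.0551 to 0.0872.

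The alpha C-type members moved in opposite directions. Pcdhac2 ranged from 23.3 to 33.1 CPM in wild type, with a median of 30.9, and from 31.5 to 36.0 in Q140, with a median of 33.6. The groups overlapped, and the rise of 0.15 on the log2 scale (SE 0.048) was called with an adjusted p of 0.0117. Pcdhac1 ranged from 1.42 to 2.27 CPM, median 1.95, in wild type and from 1.36 to 2.14, median 1.43, in Q140. It fell by 0.31 on the log2 scale (SE 0.106, adjusted p = 0.0217) with overlapping groups, a call lost without wild type F1 (adjusted p = 0.0535), without wild type M2 (adjusted p = 0.0513) and without all 3 libraries that stood apart (adjusted p = 0.073).

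The gamma C-type members had no call with edgeR. Limma on FPKM called Pcdhgc3 higher, by 0.12 on the log2 scale (adjusted p = 0.022). In that fit, which used no TMM scaling, the median log2 fold change of all genes was 0.0602, against 0.0018 with edgeR. Pcdhgc5 ranged from 87.2 to 135 CPM in wild type, with a median of 120, and from 112 to 125 in Q140, with a median of 118. Pcdhgc3 ranged from 56.2 to 77.6 CPM, median 71.0, and from 68.1 to 75.9, median 72.4. In both genes the Q140 libraries lay within the wild-type range, and the log2 fold changes of Pcdhgc5, Pcdhgc3 and Pcdhgc4 were 0.01, 0.05 and 0.09, with adjusted p values of 0.865, 0.344 and 0.376.

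Among the gamma A and B members the rises lay at 1 end of the cluster, a grouping made after the values were seen. In chromosome order the first 5 are Pcdhga1, Pcdhga2, Pcdhga3, Pcdhgb1 and Pcdhga4, and 4 of these rose, with a median log2 fold change of 0.65 over the 5. Pcdhgb1 ranged from 4.96 to 9.69 CPM in wild type, median 6.59, and from 9.97 to 13.5 in Q140, median 12.5. Pcdhga2 ranged from 11.9 to 18.4 CPM, median 15.9, and from 21.7 to 31.1, median 29.03. The groups of both were apart, with log2 fold changes of 0.89 (SE 0.111, adjusted p = 1.23e-07) and 0.83 (SE 0.108, adjusted p = 3.86e-07). Pcdhga4 went from 9.11 to 12.7 CPM in wild type to 15.5 to 20.3 in Q140, again apart, and Pcdhga1 from 5.42 to 8.70 to 8.39 to 12.8, with overlap. Their log2 fold changes were 0.65 (SE 0.0624, adjusted p = 1.1e-10) and 0.58 (SE 0.114, adjusted p = 0.000161), and Pcdhga3 had 0.22 with an adjusted p of 0.0816.

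Of the next 13 gamma A and B members, 2 rose and 1 fell, with a median log2 fold change of -0.03. Pcdhga5 and Pcdhga9 both rose by 0.23. Pcdhgb7 ranged from 15.05 to 21.4 CPM in wild type, median 19.6, and from 14.5 to 19.6 in Q140, median 15.995, and fell by 0.20 (SE 0.0618, adjusted p = 0.0117) with overlapping groups. Pcdhga6 ranged from 31.8 to 55.6 CPM in wild type and from 35.1 to 46.7 in Q140, with a log2 fold change of -0.19 that was not called. Without wild type M3 the number of members called lower rose from 2 to 7, and without wild type F3 it was 4.

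**Figure D3:**
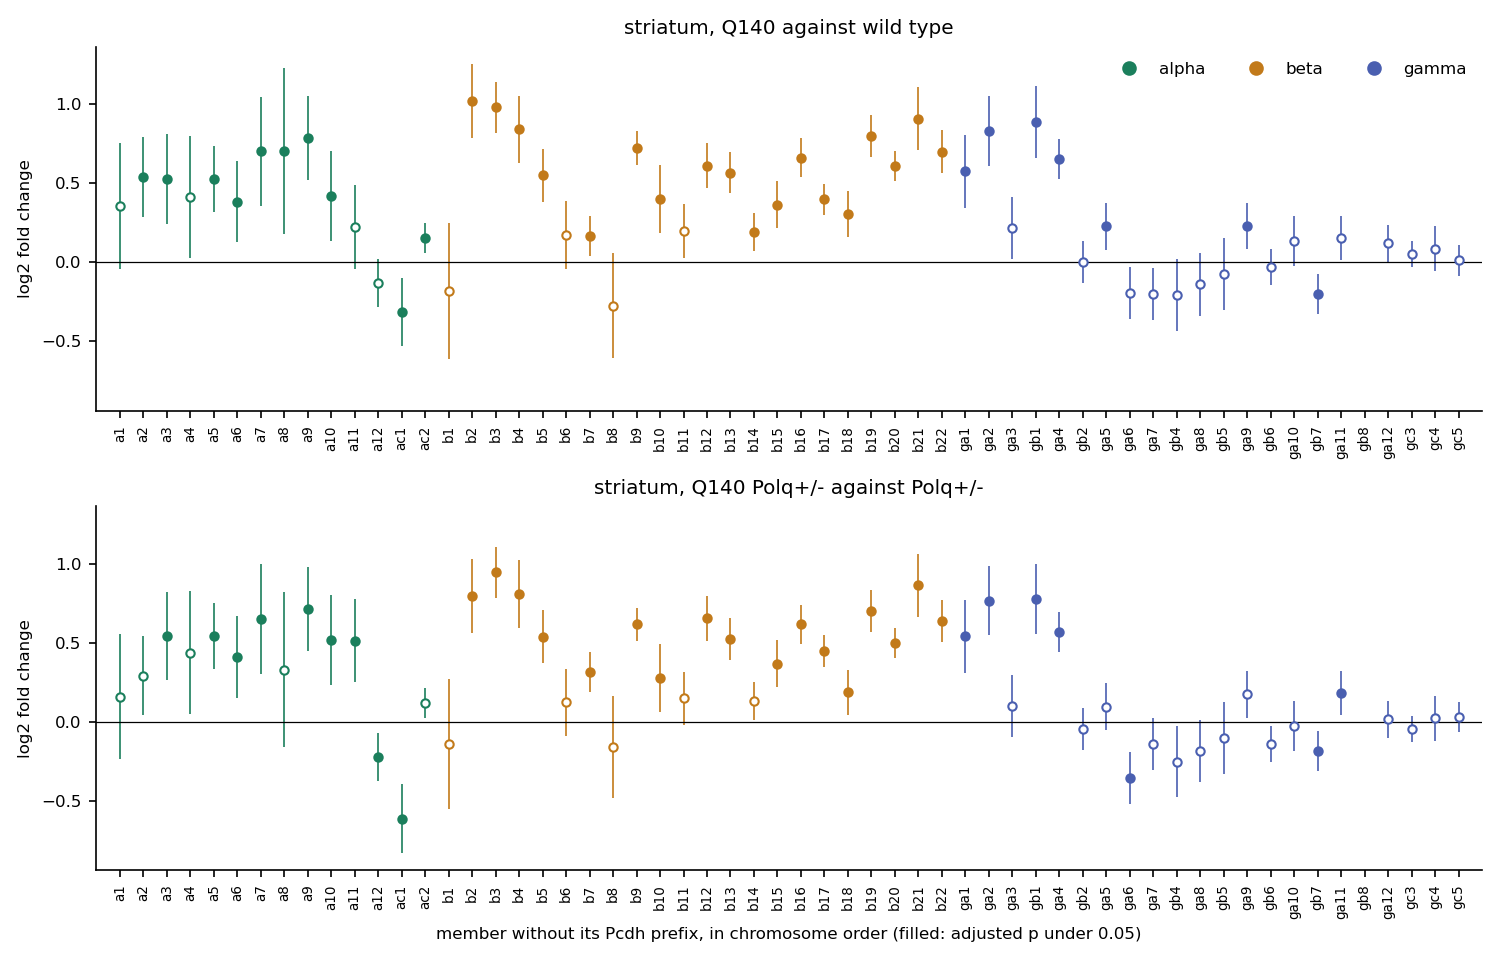
Log2 fold change of each tested member in striatum, in chromosome order, for Q140 against wild type and Q140 Polq+/- against Polq+/-; points are edgeR estimates, filled where the adjusted p is under 0.05, and vertical bars are 95% intervals, each group 8 libraries. Most beta members and the first gamma members lie above 0 in both comparisons, Pcdhac1 lies below 0, and the gamma C-type members lie at 0.

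The second striatal comparison, Q140 Polq+/- against Polq+/-, set against each other groups that shared no library with those of the first. Both comparisons came from the same fit of all striatal libraries, with a shared filter, scaling and estimate of spread, so their tests are not independent. The second comparison called 29 of 57 members higher and 4 lower, beside 16.1% and 15.3% of all genes. Of the members higher in the first comparison, 27 were higher in both, which is 81.8% of the first list and 93.1% of the second. The matching overlap over all genes was not computed, so this share is not shown to be particular to the members. By cluster 17 of 22 beta, 7 of 14 alpha and 5 of 21 gamma members rose, with median log2 fold changes of 0.51, 0.42 and 0.02. In 15 members, 13 of them beta and 2 gamma, every Q140 Polq+/- library was above every Polq+/- library, beside 4.54% of all genes.

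Single members moved by like amounts. Pcdhb3 ranged from 2.67 to 4.39 CPM in Polq+/- and from 5.62 to 8.14 in Q140 Polq+/-, and Pcdhb2 from 1.70 to 2.81 and from 3.07 to 4.61. Neither overlapped, and the log2 fold changes were 0.95 and 0.80. Pcdhb21, Pcdhb4, Pcdhgb1, Pcdhga2, Pcdha9, Pcdha7, Pcdhga4 and Pcdhga1 rose by 0.86, 0.81, 0.78, 0.77, 0.71, 0.65, 0.57 and 0.54. Pcdha11, with no call in the first comparison, rose by 0.51 here. Pcdha2 and Pcdha8 were not called, at 0.29 (adjusted p = 0.0719) and 0.33 (adjusted p = 0.333), nor was Pcdhac2, at 0.12 (adjusted p = 0.0545). Pcdhac2 passed without the 3 libraries that stood apart (adjusted p = 0.00735), without wild type M3 alone (adjusted p = 0.00413), without any 1 of 12 other libraries (adjusted p values of 0.0228 to 0.045) and with limma on FPKM (adjusted p = 0.00178). Pcdha2 passed without the 4 mice of lowest Polq, at 0.43 (adjusted p = 0.0295), with limma on FPKM (adjusted p = 0.0232) and without any 1 of 5 libraries, at adjusted p values of 0.0233 to 0.0489.

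Pcdhac1 was again lower. It ranged from 1.66 to 2.19 CPM in Polq+/-, median 1.95, and from 1.11 to 1.41 in Q140 Polq+/-, median 1.28, so that no library overlapped. It fell by 0.61 on the log2 scale (SE 0.108, adjusted p = 2.15e-05). Pcdhga6 ranged from 42.4 to 55.4 CPM, median 50.3, and from 32.9 to 49.8, median 37.2, with overlap, and fell by 0.36 (adjusted p = 0.000766). Pcdha12 fell by 0.22 (adjusted p = 0.0197) and Pcdhgb7 by 0.18 (adjusted p = 0.0188). The Pcdha12 call was lost without Polq+/- F3 (adjusted p = 0.0601) or Q140 Polq+/- F3 (adjusted p = 0.0592), and that of Pcdhgb7 without Polq+/- M3 (adjusted p = 0.0505) or Q140 Polq+/- F1 (adjusted p = 0.0537). Both were also lost without the 4 mice of lowest Polq, at adjusted p values of 0.0863 for Pcdha12 and 0.0654 for Pcdhgb7.

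With all 16 Q140 carriers set against all 16 mice without the allele, 37 members were higher and 6 lower in striatum, beside 23.6% and 21.2% of all genes. The rises were of 19 beta, 11 alpha and 7 gamma members. The 6 lower members were Pcdhac1, Pcdha12, Pcdhga6, Pcdhgb4, Pcdhgb7 and Pcdhga7, at log2 fold changes of -0.46, -0.18, -0.27, -0.23, -0.19 and -0.17, none of them beta. Pcdhgb4 lost its call without the 4 mice of lowest Polq (adjusted p = 0.0879).

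The same striatal libraries differed in cell markers. Of 8 spiny neuron markers 7 were lower in Q140 than in wild type and 0 higher, with a median log2 fold change of -0.63. Between Q140 Polq+/- and Polq+/- 7 were lower and 1 was higher. Of all genes 15.2% were lower and 16.9% higher in the first pair, and 15.3% and 16.1% in the second. Their sum ranged from 7741 to 9120 CPM in wild type, 8130 to 8678 in Polq+/-, 4912 to 5673 in Q140 and 5110 to 5517 in Q140 Polq+/-. The sum of the cortical projection neuron markers had medians of 18.5, 18.7, 23.0 and 22.9 CPM in the same order. Of the 5 tested, 2 were called higher and 0 lower in each pair. Of 6 markers each, 6 endothelial and mural, 5 microglial, 2 oligodendrocyte and 1 astrocyte markers were lower in Q140 than in wild type, and none was higher. In the second pair 2 endothelial and mural, 0 microglial, 2 oligodendrocyte and 2 astrocyte markers were lower, and none was higher. No marker of these lists was at 0 in every library of a group. Their part in the protocadherin changes was not tested, and in bulk tissue fewer cells of a type and less RNA per cell cannot be told apart.

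The second question was whether the Polq allele went with a change. In striatum no member was called between Polq+/- and wild type by edgeR, DESeq2 or limma, beside 0.0493% of all genes, and 9 members, or 15.8%, had an unadjusted p under 0.05, against 5.06% of all genes. The log2 fold changes of 47 of the 57 were above 0, with a median of 0.08. Without wild type M2 and M3 and Polq+/- F3 that median was 0.026. None was called between Q140 Polq+/- and Q140, beside 0.0547%, with 3 (5.26%) at an unadjusted p under 0.05, against 3.34% of all genes. The test of whether the Q140 difference itself depended on the Polq genotype called 0 members, beside 0%, and 0 members had an unadjusted p under 0.05, against 4.89% of all genes. That difference of differences was -0.04 on the log2 scale for Pcdhb3, with a 95% interval from -0.26 to 0.19, and -0.23 for Pcdhb2, from -0.56 to 0.10. For Pcdhac1 it was -0.30, from -0.61 to 0.0041, with an unadjusted p of 0.053.

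In cortex the clusters did not separate by Q140. Summed beta expression ranged from 161 to 184 CPM in wild type and 158 to 187 in Q140, alpha from 95.7 to 111 and 95.003 to 115, and gamma from 408 to 458 and 408 to 459. The Q140 range covered nearly all of the wild-type range in each cluster. Of 56 members tested, edgeR, DESeq2 and limma called 0 between Q140 and wild type, beside 0.348% of all genes, and 5 (8.93%) had an unadjusted p under 0.05, against 9.77% of all genes. Pcdhb1 had too few counts there, 0 to 6, to be tested. Between Q140 Polq+/- and Polq+/- they called 0, beside 0.337%, with 1 (1.79%) at an unadjusted p under 0.05, against 10.4% of all genes.

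The members that moved most in striatum had narrow intervals around 0 in cortex. Pcdhb2 ranged from 3.43 to 5.84 CPM in wild-type and from 3.53 to 6.88 in Q140 cortex, with a log2 fold change of 0.10 and a 95% interval from -0.09 to 0.28. Pcdhb3 ranged from 6.96 to 9.98 and from 7.30 to 11.05, with 0.08 (-0.06 to 0.22). Pcdhgb1 had 0.06 (-0.15 to 0.27) and Pcdhga2 had 0.04 (-0.20 to 0.28). These intervals do not reach the striatal estimates of the same genes, between 0.83 and 1.02. For lower members the intervals were wider, such as -0.10 to 0.52 for Pcdha9 and -0.98 to 0.44 for Pcdha8.

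With all carriers set against all mice without Q140, 1 cortical member was called, beside 2.46% of all genes. Pcdhgc5 ranged from 133 to 151 CPM in wild type, median 140, 136 to 146 in Polq+/-, median 142, 122 to 142 in Q140, median 132, and 117 to 140 in Q140 Polq+/-, median 133. The carriers lay lower with overlap, and the log2 fold change was -0.10 (95% interval -0.14 to -0.06, adjusted p = 0.0055). No cortical member was called between Polq+/- and wild type, beside 0.0442% of all genes, with 3 (5.36%) at an unadjusted p under 0.05 against 4.64% of all genes. None was called between Q140 Polq+/- and Q140, beside 0.0552%, with 3 (5.36%) against 6.27%. The cortical test of dependence on Polq called 0 members, beside 0%, with 4 (7.14%) at an unadjusted p under 0.05 against 4.76% of all genes.

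A fit of both tissues, with the mouse as a block, tested the difference between the tissues directly. The signed log2 fold change of Q140 carriers was higher in striatum than in cortex for 35 of 57 members and lower for 7. The shares of all genes were 15.7% and 16.3%. The members with the higher value in striatum were 19 beta, 10 alpha and 6 gamma. The difference was 0.88 on the log2 scale for Pcdhb3, 0.82 for Pcdhb2 and for Pcdhgb1, 0.77 for Pcdhga2 and 0.69 for Pcdha9. The 7 with the more negative effect in striatum were Pcdhac1, Pcdhb8, Pcdhga6, Pcdhgb7, Pcdhga8, Pcdha12 and Pcdhgb6. The plate columns of the sequenced libraries were separate for the tissues. In comparisons of level between tissues, the tissue and the plate column therefore cannot be told apart. Within a tissue the columns were uneven over the genotypes. In striatum no Q140 library shared a column with wild type F1, F2, M1 or M4. With the plate column in the striatal fit, 32 members were higher and 2 lower in Q140 than in wild type. Between Q140 Polq+/- and Polq+/- 27 were higher and 5 lower.

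**Figure D4:**
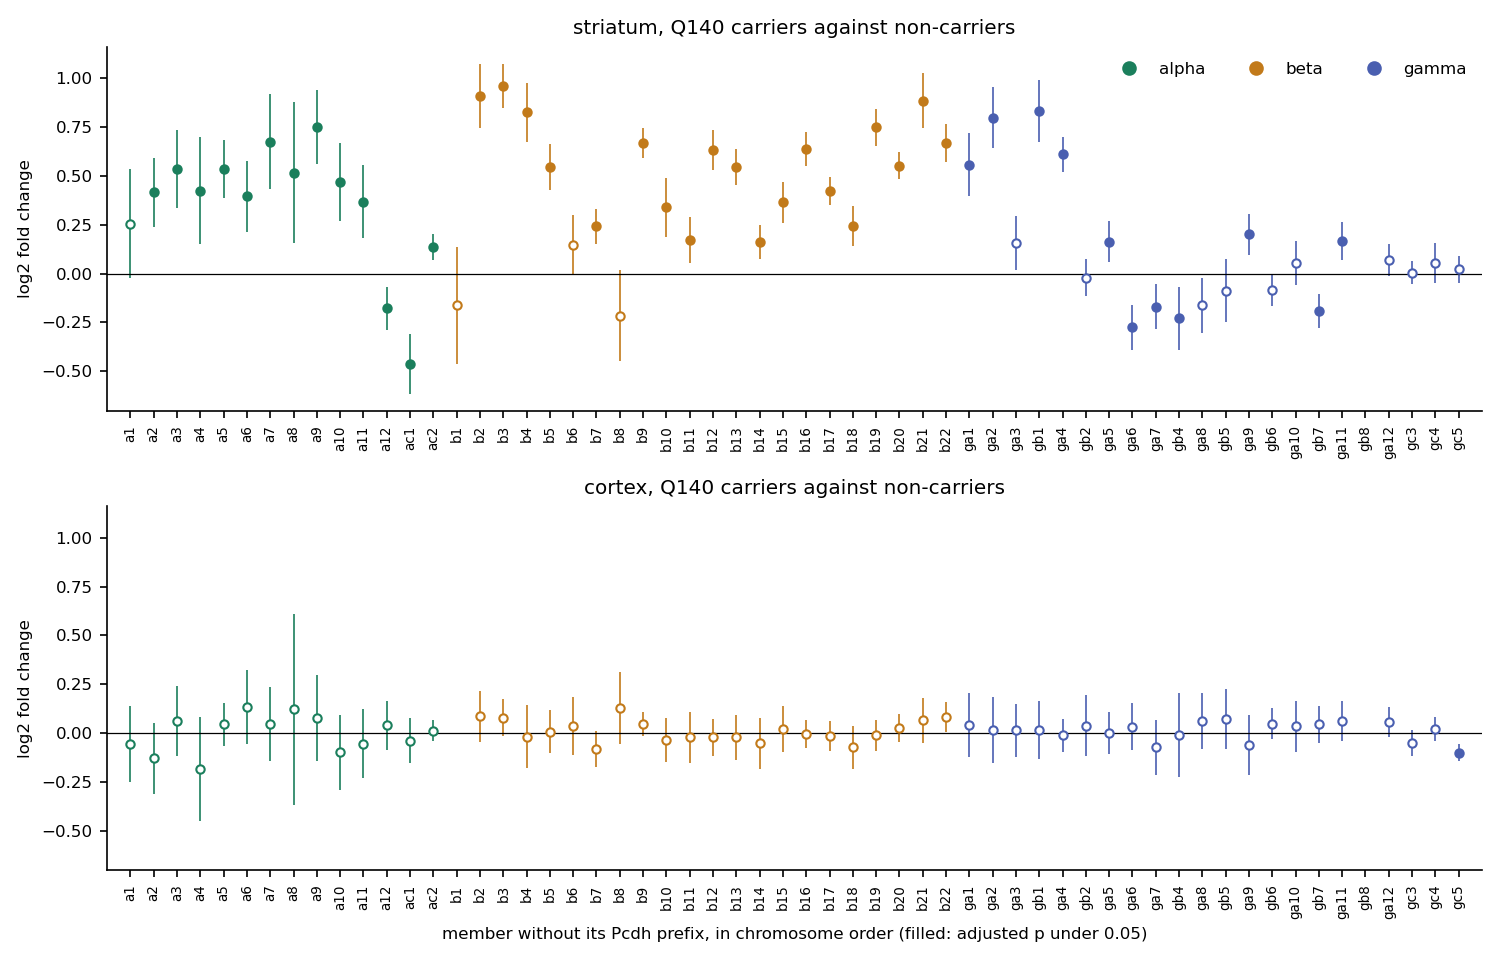
Log2 difference of Q140 carriers from mice without Q140 for each member in chromosome order, in striatum and in cortex; points are edgeR estimates over 16 against 16 libraries, filled where the adjusted p is under 0.05, and vertical bars are 95% intervals. In striatum 19 beta points are filled and above 0, and in cortex only that of Pcdhgc5 is filled, at -0.10.

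The 3 clusters also differed between the tissues of wild-type mice. Of 57 members, 28 were higher and 21 lower in striatum than in cortex, beside 39.1% and 38.1% of all genes, so the total share of calls was near that of other genes. The direction went by cluster: 11 of 14 alpha members were lower and none higher in striatum, 15 of 21 gamma members were higher and 4 lower, and beta was mixed with 13 higher and 6 lower. Pcdha11 ranged from 1.29 to 2.52 CPM in striatum and from 4.25 to 7.29 in cortex, without overlap, a log2 difference of -1.64. Pcdha7, Pcdhac1, Pcdha9 and Pcdhac2 were also lower in striatum, by log2 differences of -1.48, -1.38, -1.36 and -0.77. Without both libraries of the 3 mice that stood apart, Pcdha2 lost its tissue call (adjusted p = 0.239) and Pcdha8 gained one (adjusted p = 0.0444).

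In the gamma cluster Pcdhga6 ranged from 31.8 to 55.6 CPM in striatum and from 13.1 to 21.1 in cortex, without overlap, a log2 difference of 1.31. Pcdhga7, Pcdhgb5 and Pcdhga8 were higher by 1.30, 1.29 and 1.22, and the C-type Pcdhgc3 by 0.21. The gamma members lower in striatum were Pcdhgc4, Pcdhgb1, Pcdhga12 and Pcdhgc5, at -0.998, -0.64, -0.55 and -0.27.

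The beta cluster held members of both directions. Pcdhb6 ranged from 8.50 to 15.7 CPM in striatum and from 1.93 to 3.6003 in cortex, a log2 difference of 1.92 with no overlap, and Pcdhb18 and Pcdhb14 differed by 1.15 and 0.97. Pcdhb1 ranged from 0.40 to 0.75 CPM in striatum and from 0 to 0.064 in cortex, and it passed the filter on low counts only through striatum. In the other direction Pcdhb2, Pcdhb3, Pcdhb5 and Pcdhb12 were lower in striatum, with log2 differences of -1.22, -1.21, -0.92 and -0.50.

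Pcdhb2 and Pcdhb3, with the largest striatal rises in Q140, were thus among the beta members lowest in striatum against cortex. To set tissue difference and Q140 change side by side from groups without a shared library, the former was taken from Polq+/- mice. The Q140 change was taken from wild-type and Q140 striatum, in a fit that also held the Polq+/- striatal libraries. Across the 57 members Pearson's r was -0.481 and Spearman's rho -0.465, and without Pcdhb1 they were -0.45 and -0.442. These are given as a description over genes, which are not independent replicates and share a cluster, a normalisation and the depth of the libraries. Of the 33 members called higher in Q140, 15 were lower in striatum than in cortex of Polq+/- mice, 11 were higher and 7 had no call. Neither this split nor the correlations were computed over all genes, so they are not shown to be particular to these members.

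**Figure D5:**
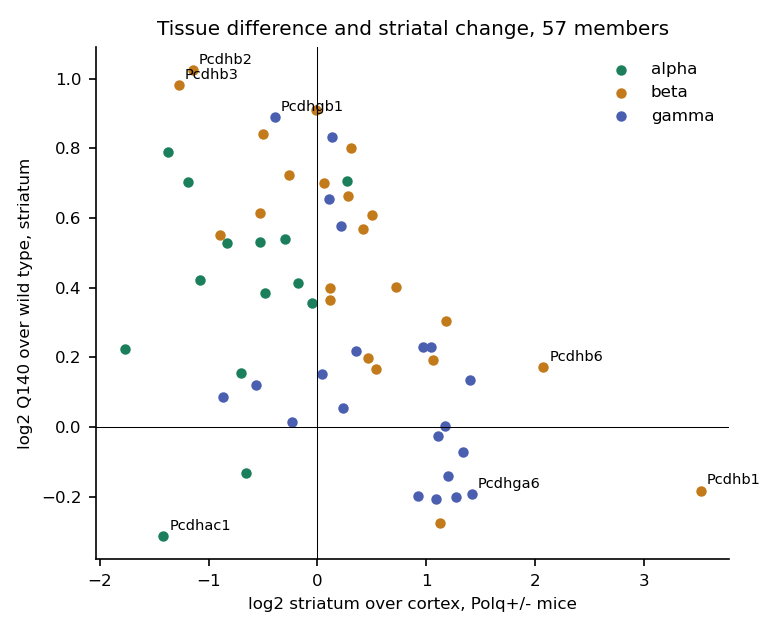
For each of 57 tested members, the log2 difference of striatum over cortex in Polq+/- mice (horizontal) and the log2 fold change of Q140 against wild type in striatum (vertical); each point is 1 gene, coloured by cluster. Points tend lower toward the right, with r = -0.481, and beta members lie above most gamma members of like tissue difference.

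Genes known to act on the clusters or to bind their products were read from 4 lists, against shares over all genes of 16.9% higher and 15.2% lower in Q140 and of 16.1% and 15.3% in the other pair. Of 11 cohesin and CTCF genes, 6 were higher and 1 lower in Q140 than in wild-type striatum: Nipbl, which loads cohesin, rose by 0.18 on the log2 scale (adjusted p = 9.35e-05), Stag2, a cohesin subunit, by 0.13, and Wapl, which releases it, by 0.12, while Ctcf fell by 0.08 (adjusted p = 0.0203). In Q140 Polq+/- against Polq+/- 4 were higher and 1 lower, with Ctcf at -0.13 and Nipbl at 0.09.

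Of 17 genes of DNA methylation and silencing, 5 were higher and 3 lower in Q140 striatum, and 4 and 3 in the other pair, shares that for the lower genes were near those of all genes. Tet2 and Tet1, which oxidise methylated cytosine, rose by 0.48 and 0.26, Wiz, a zinc-finger partner of the histone methyltransferases EHMT1 and EHMT2, by 0.35 and Smchd1 by 0.12. The methyltransferase gene Dnmt3a fell by 0.15 and Atf7ip, a partner of SETDB1, by 0.14.

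Of 16 genes for intracellular partners and proteolysis of the protocadherins, 2 were higher and 7 lower in both striatal comparisons, with the share of higher genes under that of all genes. Abi1, Nckap1 and Brk1, subunits of the WAVE actin-regulating complex that protocadherin tails bind, fell by 0.29, 0.28 and 0.27 in Q140, and the kinase gene Ptk2b fell by 0.21. Another WAVE subunit, Cyfip1, rose by 0.15. Of 3 neuroligin genes only Nlgn1, whose product gamma protocadherins bind, was called in Q140 against wild type, and fell by 0.15. In Q140 Polq+/- against Polq+/- 1 of the 3 was higher and 1 lower. In cortex no gene of these 4 lists was called between Q140 and wild type.

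Of 65 other genes within 500 kb of the clusters 35 were tested, and 8 were higher and 5 lower in Q140 than in wild-type striatum, near the shares of 16.9% and 15.2% of all genes, with a median log2 fold change of 0.0084.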

How the data were processed

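Per the submitters' processing notes, STAR 2.7.5c, SAMtools 1.10 and HTSeq 0.12.3 were used with GRCm38. A table of raw counts per gene and a table of FPKM (fragments scaled by gene length and library size), both computed by the authors, were used. The libraries were stranded, per the labels' protocols, which describe the dissection of striatum only; no source used here says whether HTSeq counted by strand. The genotypes and tissues come from the labels and each replicate is a separate mouse.

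Counts were fitted with edgeR 4.0.16 (quasi-likelihood, robust, TMM scaling, R 4.3.3), 32 libraries of a tissue in 1 fit with genotype and sex, after edgeR's filter on low counts, which left 18270 genes in striatum and 18116 in cortex. Both tissues were fitted together over 19091 genes with the mouse as a block. P-values were adjusted over all genes tested (Benjamini-Hochberg), and calls are at 0.05. The 95% intervals use the t distribution with edgeR's degrees of freedom. CPM in the text use TMM scaling over 64 libraries. The fits were also run on simulated counts of independent genes with set changes. That is a check of the code and does not show how the fits perform on these data. Alternatives were DESeq2 1.42.0, DESeq2's size factors, limma 3.58.1 on log2(FPKM + 0.1) and log2(FPKM + 1), no filter, a replicate block, the plate column, leaving out libraries or the 4 mice of lowest Polq, and other lengths.

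Gene positions and exon lengths come from GENCODE M21, which held 48435 of the 48795 gene IDs. The members and gene lists were chosen with earlier results of these data known. By rule the text names the C-type members, the 4 largest rises and falls called per cluster and comparison, all members called where 5 or fewer were, the highest and lowest level of each cluster, up to 4 called genes of smallest p per list, Polq and Htt. The remaining members, Ctcf, Dnmt3a, Atf7ip and Cyfip1 were chosen after their values were seen. Total counts limit the low members most. No member sequence is printed.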

Additional observations from a re-analysis of the deposited data

Results flagged for a closer look

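Among 168 groups of 8 libraries tested with Dixon's criterion, 14 held a library far from the other 7. Chance gives about 1 in 20 groups, or 8.4. The groups are not independent, since the cluster sums include the named members and each library enters many groups. The 14 therefore cannot be weighed against 8.4. Wild type M3 in striatum accounted for 6 of them, each at the low end: its alpha sum was 46.6 CPM (next lowest 58.4), its gamma sum 429.8 (539.3), Pcdhac2 23.3 (30.1), Pcdhgc3 56.2 (67.5), Pcdhgc5 87.2 (115.3) and Pcdhb21 2.53 (4.04). The same library also had 135 CPM of Htt against a median of 210 in its group. In striatum Pcdhac1 stood at 2.14 CPM in Q140 M3 (next 1.68) and Pcdhga1 at 9.96 in Polq+/- M3 (next 7.90), both high.

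In cortex the alpha sum of Q140 F3 was low at 95 CPM (next 106.5) and the gamma sum of Polq+/- F1 high at 464.8 (451.3). Pcdhgc4 was high in Polq+/- M4 at 15.8 CPM (13.9), Pcdha8 in Polq+/- F4 at 2.19 (0.77) and Pcdhb4 in Q140 F1 at 3.98 (3.29), and Pcdhga4 was low in wild type M4 at 7.67 (9.39).

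The effect of Q140 differed between striatum and cortex, by edgeR's test of that difference over all genes, for 21 of the members named by rule. Given as striatum minus cortex on the log2 scale, it was larger in striatum for these alpha and beta members: Pcdha4 at 0.63 (adjusted p = 0.00397), Pcdha7 at 0.62 (adjusted p = 0.00028), Pcdha9 at 0.69 (adjusted p = 1.16e-06), Pcdha10 at 0.57 (adjusted p = 0.000657), Pcdhac2 at 0.12 (adjusted p = 0.0135), Pcdhb2 at 0.82 (adjusted p = 1.79e-07), Pcdhb3 at 0.88 (adjusted p = 2.84e-14), Pcdhb4 at 0.84 (adjusted p = 3.47e-11) and Pcdhb21 at 0.82 (adjusted p = 2.71e-10). In gamma it was larger for Pcdhga1 at 0.51 (adjusted p = 0.000107) and Pcdhga2 at 0.77 (adjusted p = 3.39e-09). It was also larger for Pcdhgb1 at 0.82 (adjusted p = 4.81e-09) and Pcdhga4 at 0.62 (adjusted p = 1.81e-11). Pcdhgc5, with its own fall in cortex, had a positive difference of 0.12 (adjusted p = 0.0145).

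The difference was negative for Pcdha12 at -0.22 (adjusted p = 0.0116), Pcdhac1 at -0.43 (adjusted p = 0.000112), Pcdhb8 at -0.33 (adjusted p = 0.0439), Pcdhga6 at -0.31 (adjusted p = 0.000594), Pcdhga8 at -0.22 (adjusted p = 0.00796), Pcdhgb6 at -0.14 (adjusted p = 0.0241) and Pcdhgb7 at -0.24 (adjusted p = 0.000674).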

How the results depend on the processing

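No result reversed, and each ratio of cluster sums moved by less than the spread between replicates under the alternatives run (84, and 384 that left out 1 library). Of the values of named members, 29 lost and 15 gained a call and 2156 kept theirs, and with 1 library left out 13, 19 and 7200. The number of members called lower moved most. Between Q140 and wild type in striatum it was 2 and became 4 with DESeq2, 0 with limma on FPKM at either pseudocount, 1 without the low-count filter and 7 without wild type M2 and M3 and Polq+/- F3. Between Q140 Polq+/- and Polq+/- it was 4 and became 2 with limma on FPKM at either pseudocount, and for all carriers it was 6 and became 3. With sex in place of the mouse, the members with a lower Q140 fold change in striatum than in cortex went from 7 to 4. With 1 library left out, Q140 against wild type called 30 to 34 members higher and 1 to 7 lower, with 7 without wild type M3, 4 without F3 and 1 without F1 or M2. The other pair called 26 to 32 higher and 3 to 6 lower, carriers 37 to 38 and 6 to 8, and the cortical Q140 Polq+/- against Polq+/- 0 to 1, where Pcdhgc5 (-0.13, adjusted p = 0.0221) passed without Q140 Polq+/- M1. Limma on FPKM called 40 members higher between Q140 and wild type, and 74.7% of its calls over all genes were higher, against 52.7% with edgeR; for carriers the shares were 75% and 52.6%, and in cortex 62.1% and 34.5%. A replicate block gave 34 higher and 3 lower, 29 and 5, and 37 and 6 in the same 3 striatal comparisons, and changed none of the counts of 0; same-numbered mice of different genotypes are different animals, and the deviations of 8 of 48 striatal and 6 of 48 cortical pairs correlated over 0.1. By the lengths behind FPKM the median alpha level was 0.356 in striatum and 0.7 in cortex, and the gamma level 4.06 and 2.46 (CPM per kilobase). The call of Pcdhac1 between Q140 and wild type was also lost with limma on FPKM and without the filter. The calls of Pcdhgb7, Pcdha12, Pcdhgb4 and Pcdhga7 were lost with limma on FPKM, and those of Pcdha8 and Pcdhgb4 with the plate column. Pcdhgc3 gained one with limma on FPKM in Q140 against wild type, as did Pcdhgc3, Pcdhgc4 and Pcdhgc5 for carriers. Limma on FPKM was run without TMM scaling. At pseudocount 0.1 its median log2 fold change of all genes was 0.0602, 0.0707 and 0.0652 in the same 3 striatal comparisons. With edgeR these medians were 0.0018, 0.0051 and 0.0032. The part of that shift in the changed calls was not tested, nor were other causes. Depth limits the low alpha members, such as Pcdha4 with 9 to 39 counts per library.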
